A study of Homo sapiens with 6 samples.

Results

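FXR2 and wild-type isoform 1 of FMR1, the fragile X protein, were compared site by site to see how far the paralogs touch the same RNA positions. The comparison used every binding site listed for either protein: 34521 for FXR2 and 121903 for wild-type FMR1 isoform 1 (FMR1 iso1), together 156424 of the 464799 sites in 6 libraries. Each protein had 1 library, so no value below carries replicate error and no test was made. Intervals are exact at 95% and cover counting error only.

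The sites come from PAR-CLIP, in which cells take up 4-thiouridine into their RNA, irradiation at 365 nm crosslinks the modified RNA to proteins on it, and the RNA that is purified with a protein is sequenced. Both libraries were made from stable FlpIn T-Rex HEK293 lines, derived from human embryonic kidney cells, that carry a FLAG-HA tagged transgene, wt FXR2 in one and wt FMR1 iso1 in the other. All 6 lines were given 1 µg/ml doxycycline and 100 µM 4-thiouridine together for 16 h, irradiated with 0.15 J per square cm, and lysed; RNase T1 digestion at 22 °C lasted 15 min and was followed by FLAG immunoprecipitation. The other 4 libraries, used here only to look sites up, hold wild-type FMR1 isoform 7 (FMR1 iso7), the I304N forms of FMR1 iso1 and iso7, and FXR1. The tagged proteins were induced from transgenes, the kidney-derived line is not a neuron, and the labels do not say whether a line is 1 clone.

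FMR1 encodes FMRP, the RNA-binding protein whose loss causes fragile X syndrome, and FXR1 and FXR2 are its autosomal paralogs. The proteins share KH domains and an RGG region that contact RNA, bind one another, and associate with ribosomes, and FMRP is known mainly as a regulator of translation. I304N is a patient-derived change in a KH domain of FMRP.

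The lists differ in length and in shape. FXR2 sites had a median width of 20 nt (quartiles 18 to 23) and FMR1 iso1 sites one of 24 nt (19 to 31). The widest FXR2 site spanned 147 nt and the widest FMR1 iso1 site 1824 nt. In all, FXR2 sites covered 718752 nt and FMR1 iso1 sites 3598677 nt. Site names carry a number that some sites have in common, with no stated meaning, and 3.40% of FXR2 sites but 39.2% of FMR1 iso1 sites had theirs in common with another. The number of sites in a list moves with sequencing depth and with the calling of sites, and the labels name GAII and HiSeq sequencers without assigning them to libraries. The part of depth, calling and sequencer in the differences below was not tested.

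A site was taken as shared when 1 nt or more of it lay on a same-strand site of the other list, and as private otherwise. On that rule 22223 FXR2 sites were shared and 12298 were private, so 35.6% of the FXR2 list (35.1 to 36.1) had no FMR1 iso1 site on it. From the other side, 20360 FMR1 iso1 sites were shared, 16.7% of that longer list (16.5 to 16.9). Counted in nucleotides, 61.3% of the sequence covered by FXR2 sites lay inside an FMR1 iso1 site. Nearly all shared FXR2 sites met a single partner: 22095 overlapped exactly 1 FMR1 iso1 site and 128 overlapped more. The reverse was less one-to-one, with 1441 FMR1 iso1 sites each lying over at least 2 FXR2 sites.

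Within the 22352 overlapping pairs the FMR1 iso1 site was usually the wider one. Its median width was 32 nt (23 to 60) against 21 nt (18 to 23) for the FXR2 site, and in 73.4% of pairs (72.8 to 73.9) the FXR2 site lay wholly inside it. The 5′ ends coincided in 31.0% of pairs (30.4 to 31.6), the 3′ ends in 15.8% (15.4 to 16.3), and both in 6.59%. Where the ends differed, FMR1 iso1 sites mostly reached further out: they began upstream of the FXR2 site in 57.7% of pairs and ended downstream of it in 66.5%. The median extension was 4 nt on each side, with quartiles of 0 and 17 nt on each.

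Whether a site was shared moved strongly with its width. Among FMR1 iso1 sites, 5.37% (5.03 to 5.73) of those from 10 to 15 nt were shared, 13.5% of those from 21 to 25 nt, 28.3% of those from 41 to 60 nt, and 68.4% (66.3 to 70.4) of the 2026 sites of 101 nt or more. FXR2 sites followed the same order above 20 nt, from 59.3% (58.6 to 60.1) at 16 to 20 nt to 95.2% (91.8 to 97.5) of the 250 sites from 41 to 60 nt, though the shortest class, 10 to 15 nt, stood at 63.7%. Shared FMR1 iso1 sites had a median width of 30 nt (23 to 51) and private ones 23 nt (18 to 29), while shared and private FXR2 sites both had a median of 20 nt. When sites over 30 nt were left out of both lists, 30.6% of FXR2 sites were shared, and when the overlap had to cover at least 50% of both sites, 36.5% were.

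Private FXR2 sites were looked up in the 4 other libraries to see whether they were seen elsewhere. Of the 12298, 7319 were in none of them, 59.5% (58.6 to 60.4), against 25.1% (24.5 to 25.6) of the shared FXR2 sites. At least 1 of the 3 other FMR1 libraries held 32.2% of the private sites and 60.8% of the shared ones. Among single libraries the I304N form of FMR1 iso1 held most of the private sites, 27.9%, followed by I304N iso7 with 19.9%, wild-type iso7 with 14.3% and FXR1 with 9.74%. This is also the order of list length, from 132219 through 88644 and 78495 to 9017 sites. For the shared sites the corresponding values were 56.3%, 43.0%, 41.9% and 24.7%. Private sites were thus recovered less often in each of the 4 libraries, beyond the counting intervals. Only 1117 private FXR2 sites, 9.08%, were present in all 3 other FMR1 libraries.

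The FMR1 iso1 list split in its own way. Of its 101543 private sites, 750 lay on an FXR1 site, 0.739% (0.687 to 0.793), whereas 25.7% (25.1 to 26.3) of its shared sites did. The 3 other FMR1 libraries held 48.4% of its private and 63.7% of its shared sites, a much smaller contrast. FXR1 has 9017 sites, the shortest list, and a median site width of 20 nt as in FXR2.

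**Figure D1:**
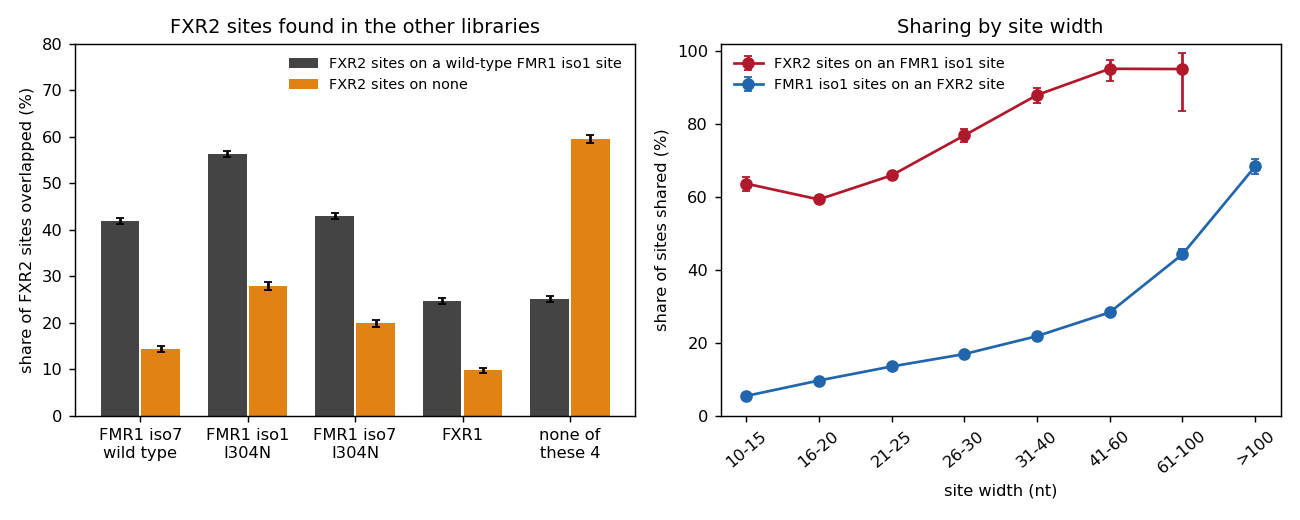
Left, share of FXR2 sites (%) overlapped by a site of each other library, for the 22223 FXR2 sites that lie on a wild-type FMR1 iso1 site (dark) and the 12298 that do not (orange); right, share of sites shared (%) against site width (nt) for each list. Bars and points carry exact 95% intervals of counting error. The orange bars are lower for each library and higher, at 59.5%, for sites found in none, and the FMR1 iso1 curve climbs from 5.37% to 68.4%.

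Private did not mean remote. The nearest FMR1 iso1 site on the same strand lay a median of 146 nt from a private FXR2 site (quartiles 31 to 2148), and 44.3% (43.4 to 45.2) were less than 100 nt away. At the far end, 9.07% (8.57 to 9.60) had none within 100000 nt. Within 1000 nt, 69.7% of private FXR2 sites had an FMR1 iso1 site, with a mean of 5.11 such sites against 11.5 around shared ones. Private FXR2 sites also stood alone more often in their own library: 44.9% (44.0 to 45.8) had no other FXR2 site within 1000 nt, against 21.0% (20.5 to 21.5) of shared ones. Private FMR1 iso1 sites were a median of 497 nt from the nearest FXR2 site, in the shorter list.

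The density of FMR1 iso1 sites around FXR2 sites fell with distance for both classes. Around shared FXR2 sites there were 1.31 FMR1 iso1 sites per FXR2 site in the 100 nt at the midpoint, 0.729 at 100 nt upstream and 0.724 at 100 nt downstream, and a mean of 0.138 between 4000 and 5000 nt. Around private sites, which by definition have no FMR1 iso1 site on them, the values were 0.255 at the midpoint, 0.353 and 0.335 at 100 nt, and 0.0604 far out. Relative to its far level, the density at 100 nt downstream was 5.25-fold for shared and 5.54-fold for private sites. The outermost upstream bin of the far range was counted only in part, which lowers the far levels slightly and raises these folds. At 1000 nt the density was 0.417 upstream and 0.444 downstream of shared sites, and 0.213 upstream and 0.188 downstream of private ones. Other FXR2 sites showed the same shape at lower levels, 0.317 at 100 nt downstream of shared and 0.133 downstream of private FXR2 sites.

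**Figure D2:**
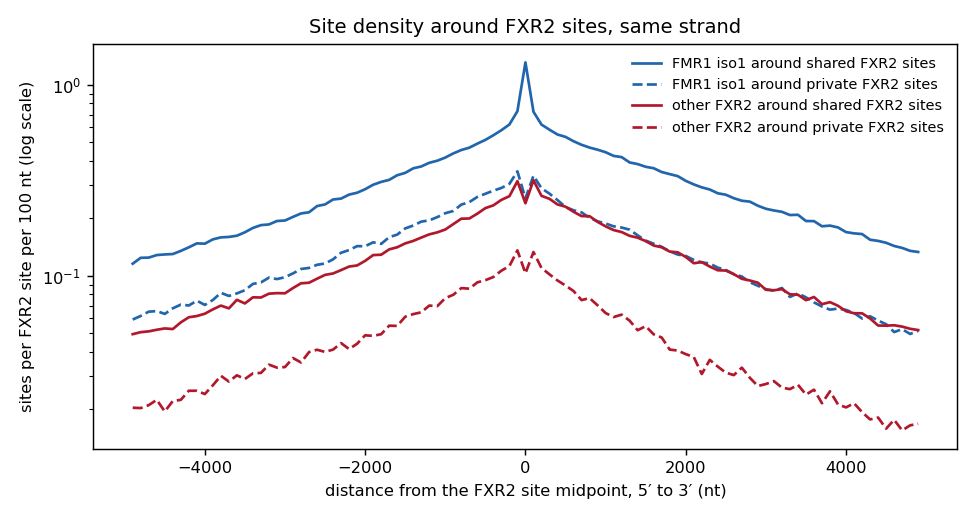
Sites per FXR2 site per 100 nt (log scale) against distance from the FXR2 midpoint (nt, 5′ to 3′, same strand). Blue lines count wild-type FMR1 iso1 sites and red lines other FXR2 sites, around shared (solid) and private (dashed) FXR2 sites. The 4 lines fall with distance beyond 100 nt, and the midpoint peak of 1.31 appears only on the solid blue line, as the definition of shared sites requires.

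For local density the genome was cut into strand-specific windows of 50 kb, site numbers were scaled to 100000 in each library with a pseudocount of 1, and the 6659 windows with a mean of at least 2 scaled sites were kept. FXR2 was at least 2-fold denser than FMR1 iso1 in 941 windows (14.1%) and at least 2-fold sparser in 1546 (23.2%), with a median log2 ratio of -0.05. Counting intervals of the single ratio lay above 1 in 270 of the former and below 1 in 320 of the latter. Many of these windows were thin: 103 of the denser ones held no FMR1 iso1 site and 782 of the sparser ones no FXR2 site. With density measured as nucleotides covered, an alternative chosen after the data were seen, the balance turned to 1319 denser and 1072 sparser windows, so the share of denser ones among them was 55.2% in place of 37.8%. Median-of-ratios scaling gave 745 and 1788 and shifted the median log2 ratio to -0.27.

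Sharing followed the number of FMR1 iso1 sites in the window, which also sets how many sites there are to overlap. The part of that in the rise was not tested. FXR2 sites were shared in 35.3% of cases (33.7 to 37.1) where a window held 1 to 4 FMR1 iso1 sites, 57.9% at 10 to 19, and 84.8% (84.1 to 85.5) at 50 or more. The last class comprised 483 windows and 10289 FXR2 sites, 29.8% of the FXR2 list. By contrast 1755 FXR2 sites, 5.08%, lay in windows without any FMR1 iso1 site.

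Single windows are given next by hg19 position and strand; which genes lie under these positions was not analysed here. They were chosen by the counts that also give their ratios, so the ratios are descriptions. The densest FXR2 window, on chromosome 21 from 34900001 to 34950000 (plus strand), held 110 FXR2 and 93 FMR1 iso1 sites, a scaled ratio of 4.18 (3.14 to 5.57). Next came chromosome 16 from 2800001 to 2850000 (plus), with 100 and 95 sites and a ratio of 3.72 (2.78 to 4.98). Chromosome 17 from 1550001 to 1600000 (minus) had 98 and 72, a ratio of 4.81 (3.51 to 6.61). In all of these FMR1 iso1 was dense too, and 105, 97 and 96 of the FXR2 sites were shared. Covered nucleotides gave lower ratios of 2.18, 2.34 and 2.19. FXR1 had 41, 18 and 28 sites there, and its intervals against FXR2 held 1 in each, at ratios of FXR2 to FXR1 of 0.701 (0.485 to 1.03), 1.45 (0.873 to 2.55) and 0.914 (0.595 to 1.45).

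Chromosome 12 from 1300001 to 1350000 (plus) held 20 private FXR2 sites among its 88, by number the most of any window outside the mitochondrial genome. As a share of its FXR2 sites that was below the 35.6% private over the whole FXR2 list. There FXR2 had 88 sites, FMR1 iso1 77, wild-type iso7 11, I304N iso1 38, I304N iso7 39 and FXR1 42. The ratio of FXR2 to FMR1 iso1 was 4.04 (2.94 to 5.55) by sites and 2.85 by covered nucleotides, and FXR2 stood below FXR1 at 0.547 (0.375 to 0.810).

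In some windows a high ratio went with very wide FMR1 iso1 sites. On chromosome X from 24000001 to 24050000 (minus), FXR2 had 62 sites and FMR1 iso1 had 17, a ratio of 12.9 (7.43 to 23.5). The FMR1 iso1 sites there had a median width of 262 nt and reached 1133 nt, 61 of the 62 FXR2 sites were shared, and the ratio of covered nucleotides was 1.19. Chromosome 5 from 135500001 to 135550000 (plus) was alike: 64 FXR2 sites, each shared, lay over 24 FMR1 iso1 sites of median width 116 nt, with a ratio of 9.42 (5.81 to 15.7) by sites and 1.34 by covered nucleotides. On chromosome X wild-type iso7 had 67 sites, I304N iso1 78, I304N iso7 64 and FXR1 28, and on chromosome 5 they had 60, 56, 58 and 29.

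In 3 other windows, given as examples, the ratio of FXR2 to wild-type FMR1 iso1 was higher than its ratios to the rest of the FMR1 libraries. These are ratios side by side, with no test of their difference. The windows were chosen by a high ratio to FMR1 iso1 or by private FXR2 sites, and either choice favours this order. The same order held in further, though not all, chosen windows, including those above on chromosomes X and 5. It is thus not particular to these 3 windows. On chromosome 10 from 77150001 to 77200000 (minus), FXR2 had 19 sites against 4, a ratio of 16.8 (5.57 to 67.8), while wild-type iso7 had 22 and both I304N libraries 33. The FXR2 ratio was 1.96 (1.01 to 3.80) to wild-type iso7, 2.21 (1.18 to 3.99) to I304N iso1 and 1.48 (0.794 to 2.68) to I304N iso7. This window was chosen for its high ratio of FXR2 to FMR1 iso1, and the intervals do not allow for that choice. Chromosome 19 from 2200001 to 2250000 (plus) had 23 FXR2 and 15 FMR1 iso1 sites, a ratio of 5.41 (2.71 to 11.2), with 18 of the 23 private. The other FMR1 libraries had 47, 72 and 62 sites there, and FXR2 ratios to them of 1.11, 1.22 and 0.953 whose intervals held 1. Chromosome 19 from 17800001 to 17850000 (plus) had 25 FXR2 and 12 FMR1 iso1 sites, a ratio of 7.36 (3.56 to 16.1). It held 22 sites in wild-type iso7, 41 in I304N iso1 and 37 in I304N iso7, with FXR2 ratios of 2.58 (1.40 to 4.81), 2.34 (1.36 to 3.93) and 1.74 (1.00 to 2.96). The intervals against each FMR1 library lay above 1, that for I304N iso7 only narrowly. Both chromosome 19 windows were chosen for their number of private FXR2 sites, which the intervals do not allow for either. FXR1 had no site in these 3 windows.

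A stretch on chromosome 17 held more FXR2 sites, after scaling, than sites of each of the 5 other libraries. It comprised 3 adjacent windows, 150 kb in all, from 76400001 to 76550000 (minus), and was singled out after its values were seen. The high FXR2 count behind that choice enters each of the 5 ratios, and their intervals do not allow for the choice. The stretch held 35 FXR2 sites, 1 in FMR1 iso1, 4 in wild-type iso7, 8 in I304N iso1, 1 in I304N iso7 and 1 in FXR1. The ratio to FMR1 iso1 was 124 (20.8 to 5019), and the smallest FMR1 ratio, that to I304N iso1, was 16.8 (7.64 to 41.8). The ratio to FXR1 was 9.14 (1.54 to 371), wide because 1 site stands against it. The FXR2 sites lay in 27 different 1 kb bins, at a median spacing of 1965 nt and with a widest gap of 15488 nt, and 1 of them was in a repeat. Whether they cluster was not tested. No other library overlapped 29 of the 35. FXR2 had no site on the opposite strand.

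Ranking by ratio picked windows with a count of 0 at either end. Of the 12 highest ratios, 8 came from windows without an FMR1 iso1 site, some with only 4 FXR2 sites. The 12 lowest ratios all came from windows without an FXR2 site, where FMR1 iso1 had 27 to 43 sites (median 35). The most extreme, on chromosome 4 from 126350001 to 126400000 (plus) and chromosome 7 from 141150001 to 141200000 (plus), had 43 FMR1 iso1 sites each. The exact upper limit of the ratio of FXR2 to FMR1 iso1, which includes counting error in both libraries, was 0.316 in each. On chromosome 4 the upper limits were 1.15 to wild-type iso7 and 2.66 to I304N iso1, and I304N iso7 had no site either. On chromosome 7 the limits to wild-type iso7, I304N iso1 and I304N iso7 were 0.517, 0.453 and 0.493. With 9 sites in wild-type iso7 and 7 in I304N iso1, the chromosome 4 counts were too few to place those ratios below 1. Over the 12 windows wild-type iso7 had a median of 10 unscaled sites, I304N iso1 12, I304N iso7 4 and FXR1 0. Among the densest FMR1 iso1 windows, chromosome 11 from 62250001 to 62300000 (minus) had 168 FMR1 iso1 and 3 FXR2 sites, a ratio of 0.0631 (0.0129 to 0.187) and the same 0.0632 by covered nucleotides. The FXR2 ratio there was 0.100 to wild-type iso7, with 68 sites, 0.0958 to I304N iso1, with 120, and 0.113 to I304N iso7, with 68. All 3 FXR2 sites were shared, and FXR1 had none.

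**Figure D3:**
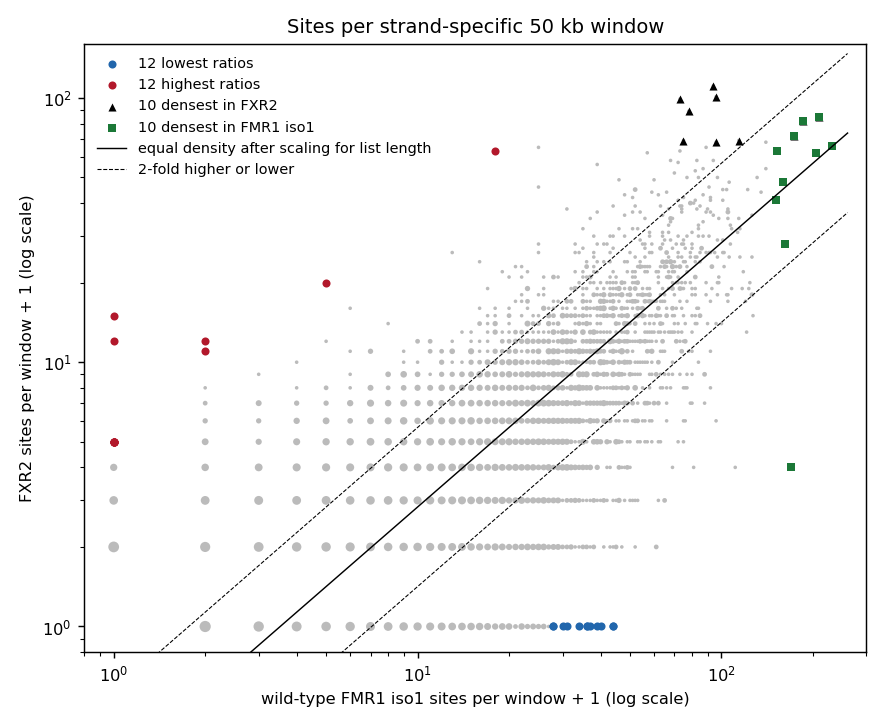
FXR2 sites against wild-type FMR1 iso1 sites per 50 kb window, each plus 1, on log axes. Grey points are windows, larger where several coincide; coloured marks are windows chosen by rank, the solid line is equal density after scaling for list length, and dashed lines are 2-fold. The lines ignore the added 1, so they do not hold for windows with few sites. The 3 densest FXR2 windows (110, 100 and 98 sites) lie above the upper dashed line, and 1 green square, with 168 FMR1 iso1 and 3 FXR2 sites, lies far below the lower one.

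**Figure D4:**
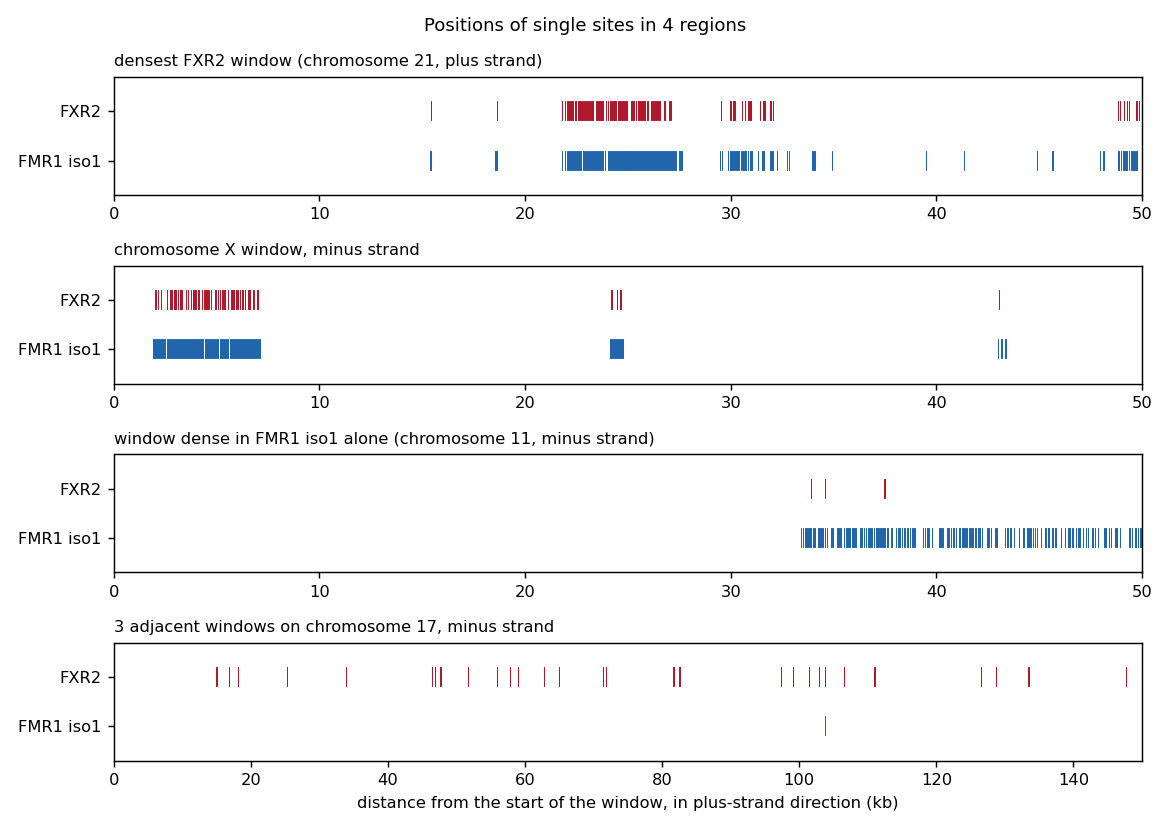
Sites (vertical bars) of FXR2 in red and wild-type FMR1 iso1 in blue against distance from the start of the region (kb); bars narrower than a pixel are drawn 1 pixel wide. From the top: 110 against 93 sites in the densest FXR2 window, 62 narrow FXR2 sites over 17 wide FMR1 iso1 sites on chromosome X, 3 against 168 on chromosome 11, and 35 against 1 on chromosome 17.

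Shares of whole chromosomes also differed. Of 23 chromosomes, 7 held a larger share of FXR2 than of FMR1 iso1 sites beyond counting error and 11 a smaller one. Chromosome 13 had the highest ratio: 1271 FXR2 sites, 3.68% of the list, against 3050 FMR1 iso1 sites, 2.50%, a ratio of 1.47 (1.38 to 1.57). Against the other libraries the ratio ran from 1.39 (1.21 to 1.60) against FXR1 to 2.27 (2.11 to 2.45) against I304N iso7. Chromosome 13 was taken for its high ratio after the data were seen. Its FXR2 sites enter all of these ratios and the counts that follow, and the intervals do not allow for the choice. The excess was spread along the chromosome: 7 of its 9 blocks of 10 Mb with at least 50 FMR1 iso1 sites had an interval above 1, compared with 44 of 294 such blocks in the genome. Such a spread was not particular to chromosome 13: the count was 5 of 6 on chromosome 19 and 6 of 9 on chromosome 16. Of the 178 kept windows on chromosome 13, 29.2% (22.7 to 36.5) were at least 2-fold denser in FXR2, against 14.1% of windows in the genome. The share was also high on chromosome 19, at 27.8% (23.2 to 32.7), and chromosome 16, at 26.2% (20.6 to 32.5). In covered nucleotides the chromosome 13 ratio was 1.45.

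Chromosomes 16 and 19 were also raised against FMR1 iso1, at 1.36 (1.28 to 1.44) and 1.30 (1.24 to 1.37), but not against every FMR1 library. For chromosome 16 the FXR2 share was 0.820 of that in wild-type iso7, 0.834 of I304N iso1 and 0.855 of I304N iso7, all with intervals below 1. For chromosome 19 the values were 1.01 (0.957 to 1.06), 0.785 and 0.633. Chromosome X had a ratio of 1.17 (1.10 to 1.24) by sites and 0.974 by covered nucleotides. The lowest ratios were 0.814 (0.757 to 0.874) on chromosome 9 and 0.821 (0.764 to 0.883) on chromosome 14.

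**Figure D5:**
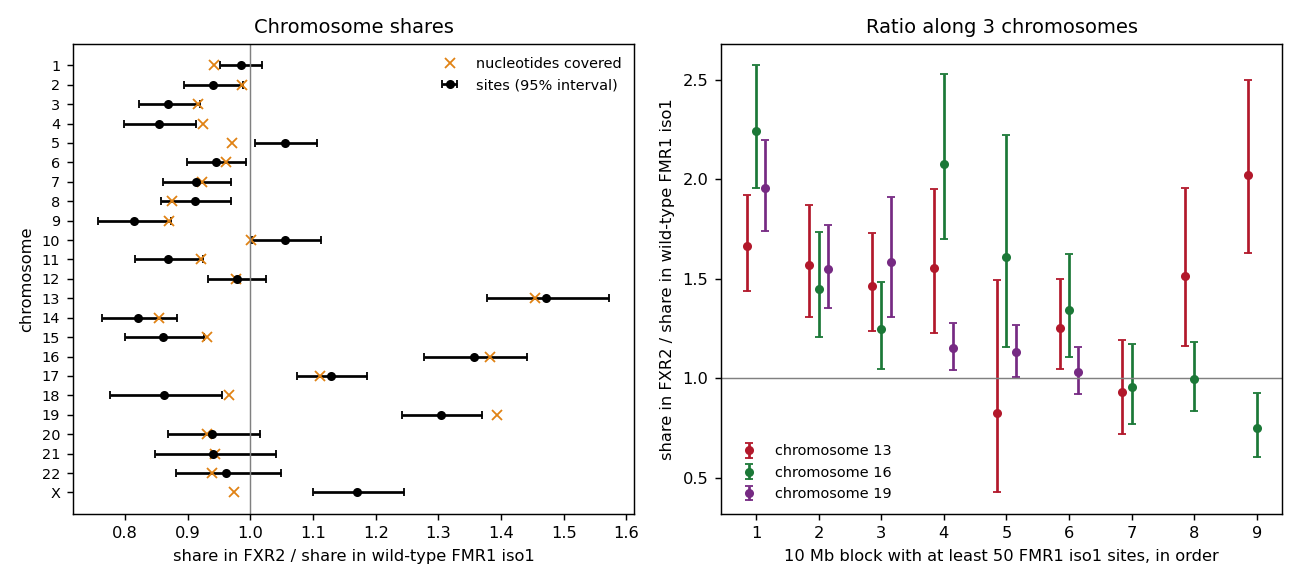
Left, ratio of the FXR2 share to the wild-type FMR1 iso1 share of sites for 23 chromosomes (points, exact 95% intervals of counting error) and of covered nucleotides (crosses); right, the ratio of sites in successive 10 Mb blocks with at least 50 FMR1 iso1 sites on chromosomes 13, 16 and 19. Chromosome 13 lies highest at 1.47, with 7 of its 9 blocks above 1, against 6 of 9 on chromosome 16 and 6 of 6 on chromosome 19.

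Smaller classes differed as well. Repeat sites were more frequent among private FXR2 sites, at 4.98% (4.60 to 5.38), than among shared ones, at 3.32% (3.09 to 3.56), whereas in FMR1 iso1 the values were 5.36% and 5.33%. Both lists had about 0.101% to 0.103% of their sites on the plus strand of the mitochondrial genome, 35 and 125. On its minus strand FMR1 iso1 had 21 sites, 0.0172% of its list (0.0107 to 0.0263). FXR2 had 0 there, with an exact upper limit of 0.0107% of its list, so the intervals meet.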

How the data were processed

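PAR-CLIP site lists of 6 libraries were used, grouped by the immunoprecipitated protein in the labels. Bowtie 0.12.7 and the hg19 build are named in the submitters' processing notes. How sites were called, at which thresholds, and whether libraries were pooled is not given in the sources used here. The deposited score is a flag, per the file headers, of 1000 outside repeats and 0 in a repeat, so sites were counted without a height. Depth in reads is unknown.

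Overlaps, distances, windows and shares were computed with Python 3.11.15, numpy 2.4.6, pandas 2.3.3 and scipy 1.17.1. Only overlaps, counts of sites within a set distance and window ratios were tested on simulated data. Shares have Clopper-Pearson and ratios exact conditional intervals at 95%. The labels name no molecular identifiers. With 1 library per protein, no p-value was computed.

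Windows named are the 10 densest in each list, the 12 highest and 12 lowest ratios, and 5 each with most private and most wholly shared FXR2 sites. They gave 50 distinct windows outside the mitochondrial genome, and the text gives a selection. The windows and measures were chosen with earlier results of these data known. Whole-chromosome ratios and the chromosome 17 stretch were added after seeing the data. No genome or annotation of the hg19 build was used, so planned motifs and gene lists were not analysed here, and no gene was assigned to a window. The labels were not checked against the transgenes.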

Additional observations from a re-analysis of the deposited data

How the results depend on the processing

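The share of FXR2 sites shared with FMR1 iso1 was 62.7% when 50% of the shorter site had to overlap, 36.5% with 50% of both, 63.1% without repeat sites, 30.6% without sites over 30 nt, and 18.3%, by formula, with the FMR1 iso1 list cut to the FXR2 length. For FMR1 iso1 sites the corresponding values were 16.2% and 10.3% for the overlap rules and 11.4% without wide sites. Ignoring strand or leaving out mitochondrial sites moved neither share beyond its interval. Alternatives chosen after the data were seen gave 32.1% (wild-type iso7), 46.2% (I304N iso1), 34.8% (I304N iso7) and 19.4% (FXR1) of FXR2 sites shared with another library in place of FMR1 iso1, and 19.0% of FMR1 iso1 site groups shared when sites with the same name number counted once. Also chosen then, the share of private FXR2 sites found in no other library was 62.6% with 50% of the shorter site, 57.7% without repeat sites and 52.0% without wide sites. Within 500 and 2000 nt, 36.8% and 23.7% of FXR2 sites stood alone (29.5% at 1000 nt), and 87.1% and 90.9% had an FMR1 iso1 site near (89.2%). Windows at least 2-fold denser and sparser in FXR2 numbered 473 and 879 with a pseudocount of 5, and 3040 and 3007 without a filter. A filter of 4 left 1017 sparser windows, and windows of 10 kb gave 1460 denser ones. Under covered nucleotides the log2 ratio turned from 1.31 to -0.041 on chromosome 1 from 16250001 to 16300000 (plus), from 1.10 to -0.26 on chromosome 5 from 167950001 to 168000000 (minus), and from 1.06 to -0.39 on chromosome 12 from 125500001 to 125550000 (plus). Of the 50 windows, 42 kept their sign under that measure. The chromosome 13 ratio ran from 1.45 to 1.54 and that of the chromosome 17 stretch from 92.8 to 118 without repeat sites, without wide sites and with name numbers counted once, also chosen after the data were seen. The causes of these changes were not tested. The motif alternatives were not run. No paired analysis was possible because each protein has 1 library.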
